A study of Homo sapiens with 6 samples.

Results

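The genes described here hold epithelial cells to each other and give them their epithelial character: components of adherens junctions, tight junctions and desmosomes, the simple keratins, and epithelial regulators, together with the membrane protein FLRT3. The list names 34 genes, chosen by symbol with earlier results of these data known. Of these, 30 had a row with that symbol in the deposited table, on 32 rows in all. CDH1, CTNNA1, CTNND1 and F11R were not analysed here. The cells were A549, a line established from a human lung adenocarcinoma, and RNA was taken 48 hours after they received MYEOV siRNA 1 (labelled siMYEOV #1), MYEOV siRNA 2 (labelled siMYEOV #2) or a control siRNA (labelled siNC), with 2 arrays in each of the 3 groups. All groups, the controls included, received siRNA with the lipid Lipofectamine RNAiMAX. The labels do not say what a replicate repeats, so the p-values below reflect only how far these arrays differ, possibly for technical reasons alone. Values are log2 signals from Affymetrix arrays.

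Epithelial cells are joined by 3 kinds of junction. Adherens junctions hold cells together through E-cadherin and its catenins, tight junctions seal the space between cells with claudins and occludin anchored to ZO scaffold proteins, and desmosomes tie desmosomal cadherins through plakoglobin, plakophilins and desmoplakin to keratin filaments. The factors GRHL2 and OVOL1 and the splicing regulators ESRP1 and ESRP2 maintain this state, and it is lost when cells turn mesenchymal. In lung epithelium these contacts form the airway and alveolar barrier.

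MYEOV, the targeted gene, had signals of 5.34 and 5.19 with siRNA 1 and 5.23 and 4.70 with siRNA 2, against 6.20 and 6.50 with the control siRNA, so it was lower on all 4 MYEOV siRNA arrays. It fell with both, by log2 differences of -1.09 with siRNA 1 and -1.39 with siRNA 2 (limma adjusted p = 0.0215 and 0.00516). The first call was lost without either siRNA 1 array or either control array, with limma adjusted p between 0.0671 and 0.146. MYEOV passed the threshold for testing, a mean signal of 5.45, only through its control arrays, and with no filter the limma adjusted p was 0.135 with siRNA 1 and 0.0446 with siRNA 2. Of 12 epithelial markers, 11 had a named row and 7 of these stood at or above 5.45, the median signal of all named genes. CLDN4, CLDN7, GRHL2 and ESRP1 stood below it. None of the 3 fibroblast or 4 endothelial markers with a named row reached that level, and of the 3 immune markers only CD68, a lysosomal protein, did. Because RNA came from whole cultures, fewer cells expressing a gene and less of its RNA per cell cannot be told apart.

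Genes whose signal averaged at least 5.45 across all 6 arrays were tested. This left 7442 genes, among them 22 of the 30 measured members. DSC3, CLDN4, CLDN7, CGN, ESRP1, ESRP2, GRHL2 and OVOL1 were below it and have values only. The nearest member under the threshold was CLDN7, with a mean of 4.98, and the nearest above it were KRT19, with 5.55, and TJP3, with 5.78. TJP3 and KRT19 reached it in 2 of the 3 groups: the TJP3 control arrays averaged just under it, so that TJP3 passed through its MYEOV siRNA arrays, and the KRT19 mean with siRNA 2 was 5.38. Genes are said to be called, to rise or to fall where limma's Benjamini-Hochberg adjusted p, taken over all 7442 genes, lay under 0.05.

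With siRNA 1, 2 of the 22 tested members rose, FLRT3 and TJP3, and 2 fell, DSC2 and LIN7C. Over all genes tested, 2.28% were called higher and 2.38% lower in that comparison. With siRNA 2, 3 members rose, DSC2, LIN7C and TJP3, where 2.59% of all genes were called higher. Limma called 0 members lower with siRNA 2, where 4.23% of all genes were called lower, and 6 members were lower at an unadjusted p under 0.05. With the threshold at the 75th percentile of all named genes, 2 of 13 members were called lower with siRNA 2, PKP2 and KRT7, and with a trend and robust prior 1 was, PKP2. Those settings called more genes of any kind with siRNA 2. In either direction they called 574 of 3721 and 695 of 7442 genes, against 508 of 7442 with the settings used throughout. DSC2 and LIN7C thus moved in opposite directions with the 2 siRNAs. The median difference of the 22 members was 0.03 on the log2 scale with siRNA 1 and 0.03 with siRNA 2, against -0.003 and 0.0005 for all genes tested. Both siRNAs were compared with the same 2 control arrays. The members' counts, small as they are over 22 genes, were not tested against these shares. Those of genes called higher include TJP3, which passed the threshold only through its MYEOV siRNA arrays. The list itself was chosen with earlier results of these data known.

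**Figure D1:**
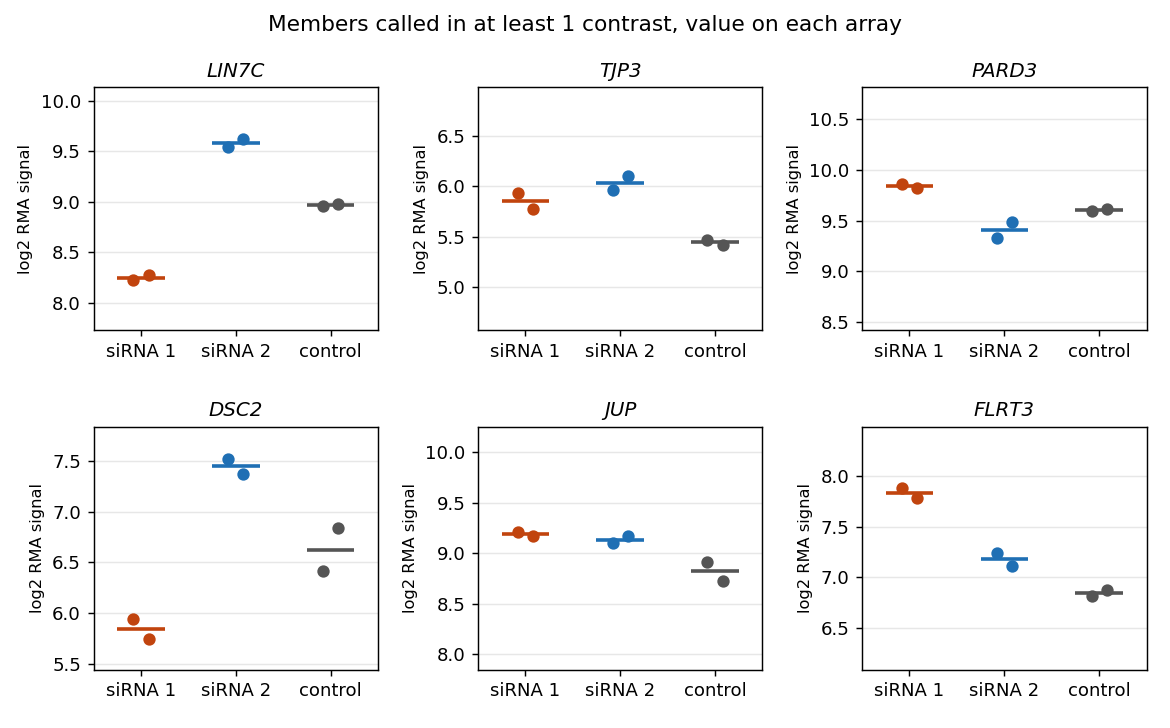
Log2 RMA signal of the 6 members called in at least 1 comparison, 1 point per array and a line at the group mean, on vertical axes that each span the same log2 range. LIN7C and DSC2 lie below the control arrays with siRNA 1 and above them with siRNA 2, while both FLRT3 and TJP3 lie above them with either siRNA.

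DSC2, desmocollin 2, is one of the cadherins that bridge neighbouring cells in a desmosome. Its signal was 5.94 and 5.74 with siRNA 1 and 7.53 and 7.38 with siRNA 2, against 6.41 and 6.84 in control arrays. The 3 groups did not overlap, and the control arrays lay between the others and further apart than either pair. DSC2 fell by 0.78 ± 0.15 (SE) on the log2 scale with siRNA 1, so that its signal dropped by 41.9% (limma, Benjamini-Hochberg adjusted p = 0.0337), and rose by 0.83 ± 0.15 with siRNA 2, 77.3% higher (adjusted p = 0.0200). Between the siRNAs the difference was -1.61, with a 95% confidence interval of -1.95 to -1.27 (limma adjusted p = 0.00100), the largest of any member. With no filter on low signals both calls against control were lost (limma adjusted p = 0.166 and 0.123). That between the siRNAs was kept (0.0141). The call with siRNA 1 was lost without either siRNA 1 array or without control replicate 2, with limma adjusted p between 0.0966 and 0.181. The call with siRNA 2 was lost without either siRNA 2 array or without control replicate 1, with limma adjusted p between 0.0611 and 0.0960, whereas the difference between the siRNAs was called without any 1 of the 6 arrays.

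LIN7C is a PDZ-domain scaffold that sits at cell junctions with the kinase-like protein CASK and polarity proteins. It had 8.22 and 8.28 with siRNA 1 and 9.54 and 9.62 with siRNA 2, against 8.95 and 8.97 in control arrays. Replicates lay close together and the groups were far apart. LIN7C fell by 0.72 ± 0.07 (SE) with siRNA 1 (limma adjusted p = 0.00331), so that its signal dropped by 39.1%, and rose by 0.61 ± 0.07 with siRNA 2 (adjusted p = 0.00314), 53.0% higher. The difference between the siRNAs was -1.33 (95% confidence interval -1.49 to -1.17, limma adjusted p = 0.00015). All 3 calls held when any 1 array was left out. With no filter on low signals the fall with siRNA 1 had a limma adjusted p of 0.0516.

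FLRT3, a leucine-rich repeat membrane protein that binds latrophilins and UNC5 receptors and can regulate cadherin-based adhesion in Xenopus embryos, had the largest rise of any member, with siRNA 1. Its signal was 7.88 and 7.79 with siRNA 1 and 7.24 and 7.11 with siRNA 2, against 6.82 and 6.87 in control arrays. All 4 MYEOV siRNA arrays were above both control arrays, and both siRNA 1 arrays were above both siRNA 2 arrays. The rise with siRNA 1 was 0.99 ± 0.08 (SE), 98.5% higher (limma adjusted p = 0.00148). With siRNA 2 the difference was 0.33 ± 0.08, 25.9% higher, and was not called (adjusted p = 0.0502). It was called in 3 of the 9 alternatives other than leaving out an array. With no filter its limma adjusted p was 0.239. The response to siRNA 1 exceeded that to siRNA 2 by 0.66 (95% confidence interval 0.48 to 0.84, limma adjusted p = 0.00307). The calls for siRNA 1 and between the siRNAs held without any 1 array.

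The stretch just upstream of the 4 genes called against control with at least 1 siRNA is shown from RefSeq, assembly GRCh38.p14, since DSC2 and LIN7C moved together across the groups and FLRT3 and TJP3 did not follow them. Each run is the 250 bases before the gene's start, read 5′ to 3′ on the gene's strand: DSC2 at chr18:31102422-31102671 (minus), LIN7C at chr11:27506770-27507019 (minus), FLRT3 at chr20:14337613-14337862 (minus) and TJP3 at chr19:3708134-3708383 (plus). Capitals mark matches on either strand to CACCTG, the E-box bound by SNAI and ZEB repressors, or to GGGCGG, the GC box bound by SP1.
DSC2: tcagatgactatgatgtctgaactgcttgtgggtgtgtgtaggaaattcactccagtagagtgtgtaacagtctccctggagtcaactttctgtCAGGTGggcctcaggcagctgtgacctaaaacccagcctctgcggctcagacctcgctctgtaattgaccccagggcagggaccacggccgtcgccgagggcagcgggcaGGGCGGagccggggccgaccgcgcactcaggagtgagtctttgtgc
LIN7C: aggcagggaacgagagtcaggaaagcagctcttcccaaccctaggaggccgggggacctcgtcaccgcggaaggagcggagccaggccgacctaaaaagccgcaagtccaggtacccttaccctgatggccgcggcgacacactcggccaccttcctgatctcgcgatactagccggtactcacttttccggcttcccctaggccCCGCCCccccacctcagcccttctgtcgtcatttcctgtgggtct
FLRT3: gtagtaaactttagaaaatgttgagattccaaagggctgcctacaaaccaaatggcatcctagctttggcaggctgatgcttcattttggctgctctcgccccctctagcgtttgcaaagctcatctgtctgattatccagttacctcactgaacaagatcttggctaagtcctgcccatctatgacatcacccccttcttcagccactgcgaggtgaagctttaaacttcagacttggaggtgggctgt
TJP3: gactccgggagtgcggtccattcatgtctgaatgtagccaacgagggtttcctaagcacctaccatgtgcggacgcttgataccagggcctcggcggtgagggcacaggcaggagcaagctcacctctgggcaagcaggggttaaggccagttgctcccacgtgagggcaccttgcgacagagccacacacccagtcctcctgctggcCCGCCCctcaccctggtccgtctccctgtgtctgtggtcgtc
The DSC2 window held 1 match to CACCTG and 1 to GGGCGG, those of LIN7C and TJP3 1 match to GGGCGG each, and that of FLRT3 neither. Other forms of the E-box were not searched for. The FLRT3 window was also lower in G and C, at 47.6%, than those of DSC2 (59.6%), LIN7C (63.2%) and TJP3 (62.8%). Of the 20 members with a window in the table, CTNNA1 included, 5 held CACCTG and 15 held GGGCGG, where 17.5% and 42.3% of 27305 windows of that length did. GGAATG, the core bound by TEAD factors, and AACCGGTT, bound by Grainyhead-like factors, were in 0 of the 20, where 11.9% and 0.106% of all windows held them. None of the 4 motifs contains another, and a match describes the sequence only.

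Among tight junction genes, TJP3 rose with both siRNAs. It encodes ZO-3, a scaffold beneath the tight junction strands. TJP3 had 5.94 and 5.78 with siRNA 1 and 5.96 and 6.10 with siRNA 2, against 5.47 and 5.42 in control arrays, so all 4 MYEOV siRNA arrays were above both control arrays, and both siRNA 2 arrays were slightly above both siRNA 1 arrays. It rose by 0.41 ± 0.09 (SE) with siRNA 1 (limma adjusted p = 0.0472) and by 0.58 ± 0.09 with siRNA 2 (adjusted p = 0.00993). The 2 siRNAs differed by -0.17, with an interval of -0.38 to 0.03 (limma adjusted p = 0.281). TJP3 passed the threshold for testing only through its MYEOV siRNA arrays. With no filter neither rise was called, at limma adjusted p = 0.223 with siRNA 1 and 0.0855 with siRNA 2. The call with siRNA 1 was lost without any 1 of the 6 arrays, with limma adjusted p between 0.0623 and 0.220. The call with siRNA 2 was lost without siRNA 2 replicate 2 or either control array, with limma adjusted p between 0.0532 and 0.0646.

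PARD3, a polarity protein that helps to place tight junctions, differed between the siRNAs. Its signal was 9.86 and 9.82 with siRNA 1 and 9.33 and 9.48 with siRNA 2, against 9.60 and 9.61 in control arrays. The control arrays again lay between the 2 siRNAs. Neither difference from control was called, at 0.24 ± 0.08 (SE) with siRNA 1 (limma adjusted p = 0.143) and -0.20 ± 0.08 with siRNA 2 (adjusted p = 0.195). Between the siRNAs the difference was 0.44 (interval 0.26 to 0.62, limma adjusted p = 0.0162), opposite in sign to those of DSC2 and LIN7C. This call was lost without either siRNA 1 array or without siRNA 2 replicate 1, with limma adjusted p between 0.0827 and 0.0971.

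The other tight junction genes were not called with the settings used throughout. CLDN1, a sealing claudin, had 10.39 and 10.16 with siRNA 1 and 9.95 and 9.61 with siRNA 2, against 10.20 and 10.10 in control arrays. The 2 siRNA 2 arrays were the lowest, and the difference between the siRNAs, 0.50 (interval 0.20 to 0.81), had a limma adjusted p of 0.0578. That difference was called with the 75th percentile threshold (limma adjusted p = 0.0196), the trend and robust prior (0.0174) and array quality weights (0.0487). It was also called with the replicate block described below. Without siRNA 2 replicate 1 it was 0.67. MARVELD2, tricellulin, which closes the corners where cells meet, was 0.26 and 0.27 above control with siRNA 1 and siRNA 2 (limma adjusted p = 0.202 and 0.164), and all 4 MYEOV siRNA arrays were above both controls. TJP1, ZO-1, was 0.23 above control with siRNA 1 (adjusted p = 0.141). CLDN2, which forms cation pores, and CLDN3 were within 0.18 of control with either siRNA. Occludin, OCLN, had 8.36 and 7.98 with siRNA 1 and 8.29 and 7.82 with siRNA 2, against 8.43 and 8.02 in control arrays. Its replicates differed by more than the groups did, and its intervals, -0.54 to 0.42 with siRNA 1 and -0.66 to 0.31 with siRNA 2, were the widest of the tested members.

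CLDN4, CLDN7 and the adaptor cingulin, CGN, were below the threshold for testing. CLDN4 had 4.65 and 4.53 with siRNA 1 and 4.68 and 4.43 with siRNA 2, against 5.03 and 5.05 in control arrays. Every MYEOV siRNA array was below both control arrays, by -0.45 and -0.48 on average for siRNA 1 and siRNA 2. When all genes were tested, with no filter, these differences had limma adjusted p = 0.226 and 0.184. CGN had 4.85 and 5.12 with siRNA 1 and 4.62 and 4.73 with siRNA 2, against 4.52 and 4.74 in control arrays, and CLDN7 lay between 4.78 and 5.20 on all arrays, both extremes being siRNA 2 arrays.

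**Figure D2:**
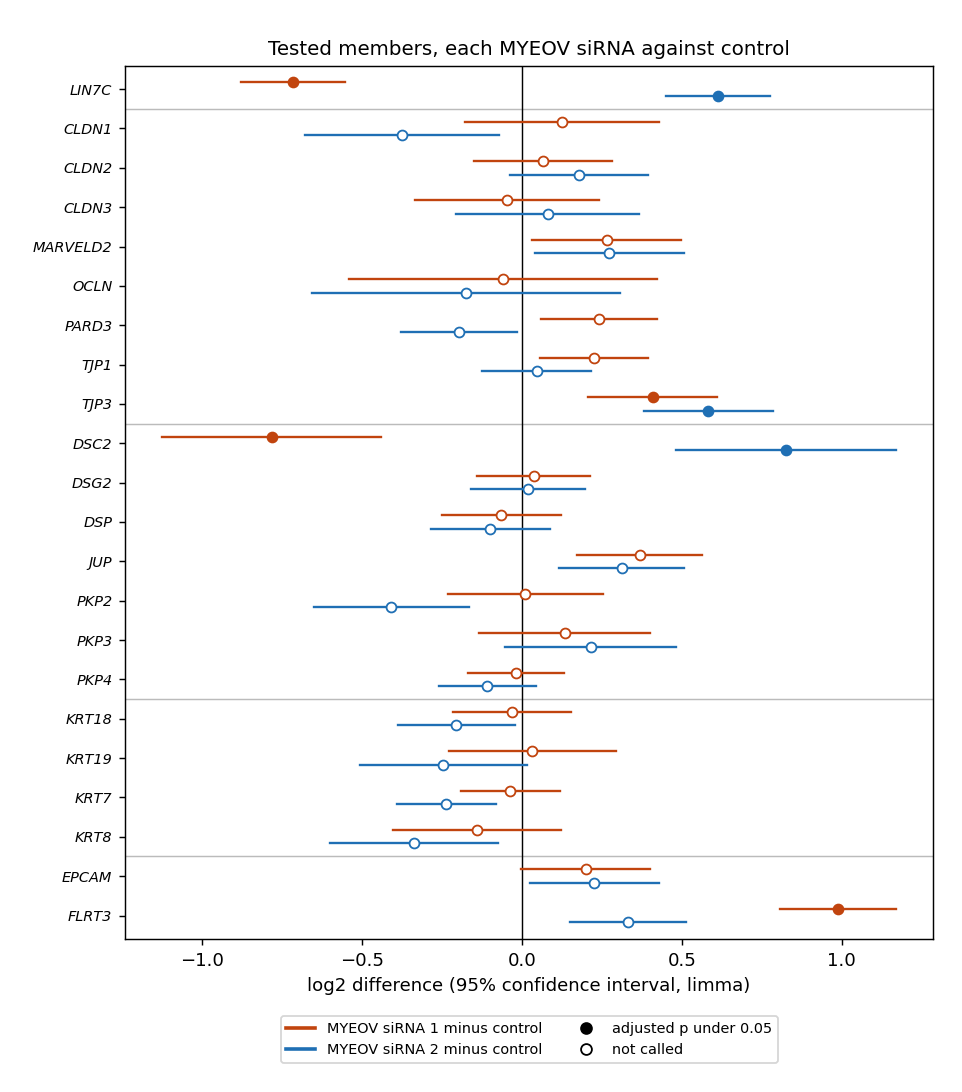
Log2 difference of each MYEOV siRNA from control for the 22 tested members, with 95% confidence intervals from limma and filled points where the adjusted p was under 0.05. From top to bottom, blocks hold the scaffold LIN7C, tight junction genes, desmosome genes, keratins and the adhesion molecules EPCAM and FLRT3; the siRNA 2 differences of all 4 keratins lie below 0 and none is filled.

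Of the 7 desmosome genes tested, DSC2 was the only one called against control with either siRNA alone at the 5.45 threshold. Plakoglobin, JUP, which links both desmosomal and classical cadherins to the cytoskeleton, had 9.21 and 9.17 with siRNA 1 and 9.10 and 9.17 with siRNA 2, against 8.91 and 8.73 in control arrays. The siRNA arrays lay close together and above both controls. Its differences were 0.37 ± 0.08 (SE) and 0.31 ± 0.08 (limma adjusted p = 0.0569 and 0.0740), and both were called with the 75th percentile threshold (0.0168 and 0.0245). The mean of both siRNAs was 0.34 above control, which was called (adjusted p = 0.0420). That call was lost without any 1 of the 6 arrays, with limma adjusted p between 0.0747 and 0.181.

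PKP2, a plakophilin that anchors desmoplakin at the plaque, had 8.12 and 8.27 with siRNA 1 and 7.65 and 7.90 with siRNA 2, against 8.15 and 8.23 in control arrays. Both siRNA 2 arrays were the lowest. The difference with siRNA 2 was -0.41 (limma adjusted p = 0.0621), that with siRNA 1 was 0.01, and that between the siRNAs was 0.42 (interval 0.18 to 0.66), just short of a call (adjusted p = 0.0502). Without siRNA 2 replicate 2 the difference between the siRNAs was called (adjusted p = 0.0450). With the 75th percentile threshold the fall with siRNA 2 was called too (limma adjusted p = 0.0190). DSG2, the desmoglein of simple epithelia and partner of DSC2, ranged only from 10.20 to 10.35 over the 6 arrays, and its difference between the siRNAs was 0.02 (interval -0.16 to 0.19). DSP, desmoplakin, PKP3 and PKP4 were likewise not called, with differences from -0.11 to 0.21. DSC3, a desmocollin below the threshold, had 4.39 and 4.54 with siRNA 1 and 5.02 and 4.95 with siRNA 2, against 4.38 and 4.90 in control arrays. The siRNA 2 arrays were the highest, and the difference between the siRNAs was -0.52, of the same sign as that of DSC2, with a limma adjusted p of 0.283 when all genes were tested.

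The 4 keratins, the filament proteins of simple epithelia, were not called in any comparison at the 5.45 threshold. With siRNA 2 they were lower than control, at -0.34 for KRT8, -0.25 for KRT19, -0.24 for KRT7 and -0.21 for KRT18 on its higher row, with limma adjusted p between 0.0817 and 0.254. With siRNA 1 the differences ran from -0.14 to 0.03. KRT7 had 8.20 and 8.15 with siRNA 1 and 7.97 and 7.97 with siRNA 2, against 8.22 and 8.20 in control arrays. Its 2 siRNA 2 arrays were below the other 4, with an interval of -0.39 to -0.08 for siRNA 2, and this difference was called with the 75th percentile threshold (limma adjusted p = 0.0279). KRT8 averaged 6.80 ± 0.081 with siRNA 1 and 6.61 ± 0.22 with siRNA 2, against 6.94 ± 0.082 in control arrays (SD, n = 2 each), so its siRNA 2 arrays were the furthest apart. KRT18 had 2 rows, one between 11.79 and 12.09 and the other between 7.73 and 7.88, and both keratin partners KRT8 and KRT18 have many near-identical pseudogene copies, so their signals are uncertain. On the second KRT18 row the siRNA 2 difference was -0.05, so the size of the KRT18 difference depended on the row used.

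EPCAM, an epithelial adhesion molecule and common carcinoma marker, had 7.19 and 7.24 with siRNA 1 and 7.27 and 7.21 with siRNA 2, against 6.92 and 7.11 in control arrays. The 4 MYEOV siRNA arrays were above both controls, by 0.20 and 0.23 on average, without a call (limma adjusted p = 0.264 and 0.179). The regulators ESRP1, ESRP2, GRHL2 and OVOL1 were all below the threshold. GRHL2, a Grainyhead-like factor that activates junction genes, ranged from 3.64 to 3.95, and ESRP1 from 3.65 to 4.40, its 2 control arrays being the extremes. ESRP2 ranged from 4.24 to 4.65, and OVOL1 from 4.16 to 4.45 on its higher row. When all genes were tested their limma adjusted p against control ran from 0.594 to 0.982. RMA compresses changes near background, and whether this hid changes at these signals was not tested.

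For the mean of both siRNAs, limma called 3 members higher, FLRT3, TJP3 and JUP, where 2.55% of all genes were called higher. It called 0 lower, where 2.86% of all genes were called lower, and 2 members were lower at an unadjusted p under 0.05. FLRT3 averaged 0.66 above control (adjusted p = 0.00433) and TJP3, tested only through its MYEOV siRNA arrays, 0.50 (adjusted p = 0.0134). With no filter none of the 3 was called, at limma adjusted p = 0.0623 for FLRT3, 0.113 for TJP3 and 0.210 for JUP. The TJP3 call was lost without either control array (limma adjusted p = 0.0822 and 0.0973). For DSC2 and LIN7C the mean of both siRNAs was 0.02 and -0.05, since the 2 siRNAs moved them in opposite directions.

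Comparing the siRNAs with each other does not use the control arrays' levels. Of the 22 members, 2 were higher with siRNA 1 than with siRNA 2, FLRT3 and PARD3, and 2 lower, DSC2 and LIN7C. Over all genes 5.37% were called higher and 3.78% lower in that comparison. Of the 18 others, the differences ran from -0.17 to 0.50, and PKP2 and CLDN1 were the nearest to a call. For EPCAM, MARVELD2, DSG2, DSP and JUP the difference between the siRNAs was at most 0.06 in size, with intervals between -0.24 and 0.25. A moderated F test over the 3 groups called 5 members, LIN7C (adjusted p = 0.000296), FLRT3 (0.00109), DSC2, TJP3 and PARD3, where 11.4% of all genes were called. TJP3 was tested only through its MYEOV siRNA arrays.

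**Figure D3:**
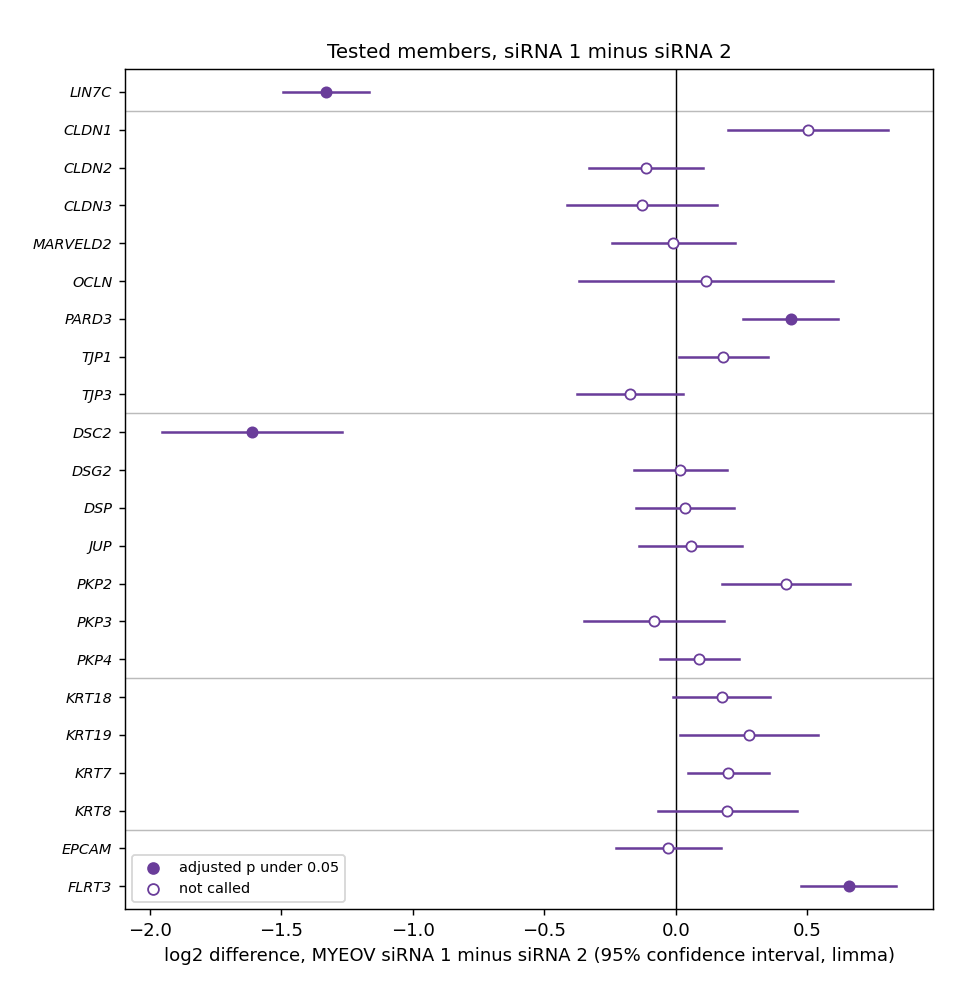
Log2 difference of MYEOV siRNA 1 minus siRNA 2 for the 22 tested members, with 95% confidence intervals from limma and filled points where the adjusted p was under 0.05. DSC2 at -1.61 and LIN7C at -1.33 stand far to the left, and FLRT3 at 0.66 is the highest called value on the right.

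Lists of further genes of the same structures were described by counts. Of 7 tested among the other adherens junction genes, 2 rose with siRNA 1, the actin-binding proteins VCL, vinculin, at 0.37 and LIMA1 at 0.45 (limma adjusted p = 0.0481 and 0.0371), and 0 fell, where 2.28% of all genes were called higher and 2.38% lower. With siRNA 2, 1 fell, the LIM protein AJUBA, at -0.53 (adjusted p = 0.00814), and 0 rose, where 4.23% of all genes were called lower and 2.59% higher. All 7 were higher with siRNA 1 than with siRNA 2, and for 3 the difference was called, AJUBA at 0.52, LIMA1 at 0.56 and CASK, a partner of LIN7C, at 0.34 (limma adjusted p = 0.00707, 0.00973 and 0.0267), where 5.37% of all genes were called higher. The same shares stand behind the counts of the lists that follow, and none of these counts was tested against them. The median of the 7 between the siRNAs was 0.24, against -0.0005 for all genes tested. CASK thus ran opposite to LIN7C between the siRNAs, but its difference was 0.08 (limma adjusted p = 0.581) when its rows were averaged.

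Of 22 tested among the other tight junction and polarity genes, 1 rose with siRNA 1, the apical polarity protein CRB3, at 0.59 (limma adjusted p = 0.0342), and 0 were called with siRNA 2. The angiomotin-like scaffold AMOTL2 was higher with siRNA 1 than with siRNA 2 by 0.50 (adjusted p = 0.0143). Of 5 further desmosome and hemidesmosome genes, periplakin, PPL, which links keratins to the desmosome and cornified envelope, rose with siRNA 1. It had 6.27 and 6.14 with siRNA 1 and 5.45 and 5.27 with siRNA 2, against 5.65 and 5.71 in control arrays. PPL was 0.53 above control with siRNA 1 (limma adjusted p = 0.0235) and -0.32 from it with siRNA 2 (adjusted p = 0.0798). Between the siRNAs it differed by 0.85 (adjusted p = 0.00177), opposite in sign to DSC2, and this call held without any 1 array.

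Of 5 other intermediate filament genes, 0 were called against control, and KRT80 was higher with siRNA 1 than with siRNA 2 by 0.55 (limma adjusted p = 0.0226). Vimentin, VIM, the mesenchymal filament, was -0.08 and -0.07 from control with siRNA 1 and siRNA 2. Of 8 other epithelial regulators, EHF, an epithelial ETS factor, rose with siRNA 2, at 0.74 (limma adjusted p = 0.0494), and had 0.41 with siRNA 1 (adjusted p = 0.256). Of 8 repressors of the epithelial state and mesenchymal genes, 0 were called against control. ZEB1 was 0.05 and -0.24 from control with siRNA 1 and siRNA 2, SNAI1 was 0.06 and -0.02 from it, and SNAI2 -0.10 and -0.07. TCF4, a helix-loop-helix factor, was higher with siRNA 1 than with siRNA 2 by 0.63 (adjusted p = 0.0208). Neither of the 2 gap junction list genes tested, PANX1 (mean of both siRNAs 0.20) and PANX2 (-0.26), was called. Of 5 genes of the FLRT family and its partners, the small GTPase RND1, which binds FLRT3 in Xenopus, rose with siRNA 1 at 0.49 and for the mean of both siRNAs at 0.43 (limma adjusted p = 0.0342 and 0.0270), and was 0.37 above control with siRNA 2 (adjusted p = 0.0597). RND1 passed the threshold only through its MYEOV siRNA arrays, its control mean being 5.36, and with no filter its 2 calls had limma adjusted p = 0.186 and 0.169.

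Most calls in these lists did not hold in every refit with an array left out. Each such refit also called fewer genes over all genes tested, so a lost call does not show that it rested on the array removed. When each array was left out in turn, 1 of the 15 calls held throughout, that of PPL between the siRNAs. With no filter 14 of the 15 were lost, and the call kept was again that of PPL. The calls of VCL and RND1 with siRNA 1 were lost without any 1 array, and those of LIMA1, CRB3 and PPL with siRNA 1 without either siRNA 1 array or either control array, at limma adjusted p between 0.0573 and 0.232. AJUBA with siRNA 2 was lost without siRNA 2 replicate 1 or control replicate 1 (0.0587 and 0.0556), and EHF without any array but control replicate 2. RND1 for the mean was lost without any array but siRNA 1 replicate 2. Between the siRNAs, CASK and AMOTL2 were lost without any siRNA array, AJUBA and LIMA1 without siRNA 1 replicate 2, LIMA1 also without siRNA 2 replicate 2, KRT80 without either siRNA 1 array or siRNA 2 replicate 2, and TCF4 without siRNA 1 replicate 2 or siRNA 2 replicate 1.

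**Figure D4:**
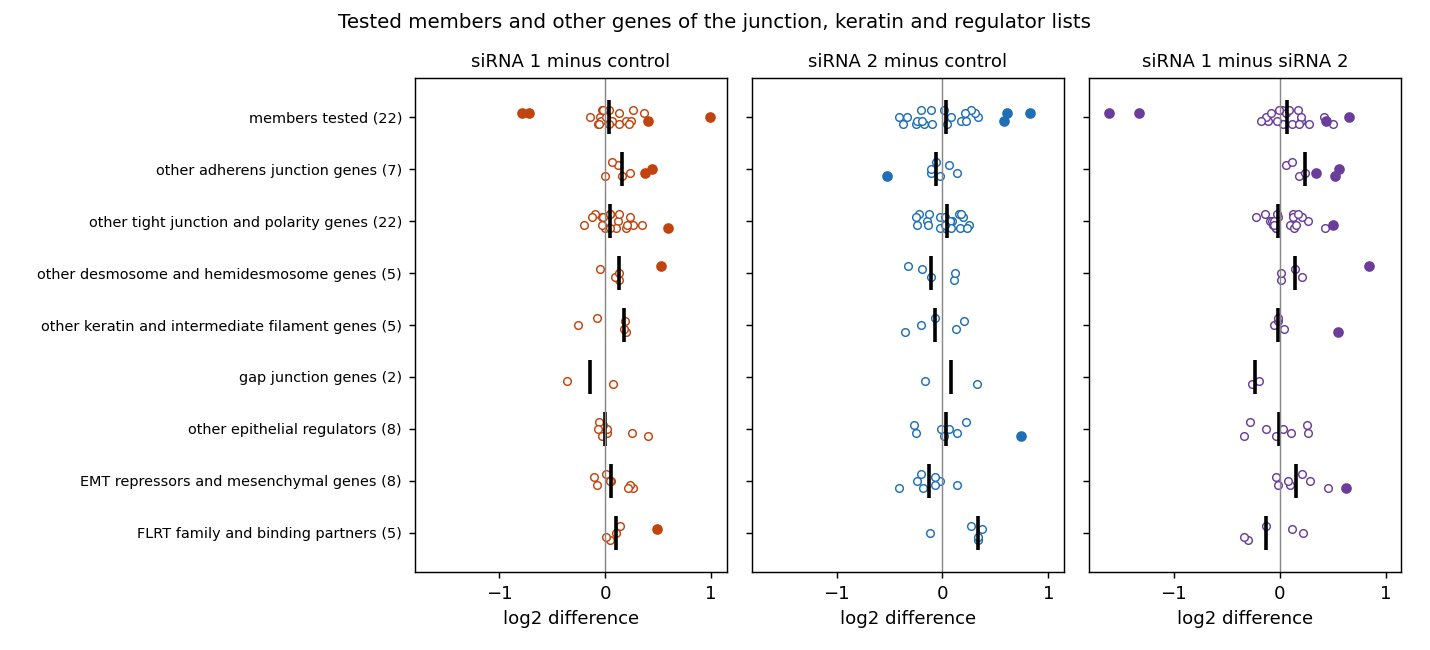
Log2 differences of the 22 tested members and of tested genes in each further list, 1 point per gene, with filled points where the limma adjusted p was under 0.05 and a black bar at the median; the number of tested genes stands in brackets. In the right panel all 7 other adherens junction genes lie above 0, while LIN7C and DSC2 lie far below it.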

How the data were processed

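The deposited values are log2 signals. The submitters' processing notes name RMA for them, without a version. RMA corrects background, equalises the arrays' distributions, summarises the probes of a transcript and compresses differences near background. Array medians lay between 4.08 and 4.10. Neither a genome build nor software settings were found in the labels or headers.

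Of 53617 rows, 16098 had 1 symbol in the platform annotation and 37519 had none. They stood for 14884 genes, with symbols brought up to date through RefSeq (GRCh38.p14). For a gene with several rows, that with the highest mean was used. Genes with a mean of at least 5.45, the median, were tested, 7442 in all. A single linear model of all 6 arrays in 3 groups, fitted with limma 3.58.1 in R 4.3.3 with moderated variances, had 3 residual and 4.09 prior degrees of freedom, with Benjamini-Hochberg adjustment over all genes tested. An exact permutation of 2 arrays against 2 cannot go below p = 0.333. The steps were tested on simulated data. No 2 arrays held identical values. The number of arrays limits the precision.

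Members and gene lists were chosen with earlier results of these data known. All members could be named, in depth those called in any comparison or with the 5 largest differences in one. Of each other list, genes called in any comparison were named, or, where none was, the 2 with the largest mean difference. VIM, ZEB1, SNAI1 and SNAI2 were named after their values were seen. The alternatives tried were other filters, row rules, normalizations, priors, weights, samples in the fit, a replicate block and each array left out. Running them for genes of the other lists and for MYEOV was decided after seeing the data. For 2 groups compared, leaving out an array of the third group gave the same fit as using those 2 groups alone. Such refits are therefore not separate checks. Sequences are from the RefSeq promoter table. Figures were drawn with matplotlib 3.10.9.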

Additional observations from a re-analysis of the deposited data

Results flagged for a closer look

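The effects of the 2 siRNAs differed from each other for 4 members, by the limma test of siRNA 1 minus siRNA 2. DSC2 differed by -1.61 (adjusted p = 0.00100) and LIN7C by -1.33 (adjusted p = 0.00015), each below control with siRNA 1 and above it with siRNA 2. FLRT3 differed by 0.66 (adjusted p = 0.00307), with both siRNAs above control. PARD3 differed by 0.44 (adjusted p = 0.0162), and neither siRNA was called against control. MYEOV itself differed by 0.30 between the siRNAs (adjusted p = 0.370).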

How the results depend on the processing

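Of the 14 member calls, 0 changed sign under any of the 14 to 16 alternatives run for it (the 75th percentile filter left out TJP3, DSC2 and FLRT3), and 7 held without any 1 array. Each called member had 1 row, so only another normalization or an array left out could move its difference. The groups compared did not overlap on any array, so leaving out 1 array could not change a sign. The lack of sign changes was therefore largely fixed beforehand. With no filter 5 calls were kept: LIN7C with siRNA 2, FLRT3 with siRNA 1, and LIN7C, DSC2 and FLRT3 between the siRNAs. The other 9 had limma adjusted p between 0.0516 and 0.223, with 14884 genes tested in place of 7442. With no filter the members called numbered 1 with siRNA 1, 1 with siRNA 2, 0 for the mean and 3 by the F test over the 3 groups. With the 75th percentile filter, which tested 13 members, they numbered 2 with siRNA 1, 4 with siRNA 2 (2 higher and 2 lower), 1 for the mean, 5 between the siRNAs and 6 by the F test. With the trend and robust prior there were 6 with siRNA 2 (5 higher and 1 lower) and 9 by the F test. With each array left out in turn, the members called ranged from 2 to 3 with siRNA 1, 1 to 3 with siRNA 2, 1 to 2 for the mean, 3 to 5 between the siRNAs and 3 to 5 by the F test. Over all genes, calls with no filter numbered 39 with siRNA 1, 139 with siRNA 2, 26 for the mean, 195 between the siRNAs and 191 by the F test, against 347, 508, 403, 681 and 845. With the 75th percentile filter they numbered 425, 574, 482, 684 and 898 of 3721 genes. With the trend and robust prior they numbered 501, 695, 581, 869 and 1158 of 7442. Leaving out 1 array gave 58 to 235, 207 to 331, 68 to 239, 226 to 618 and 364 to 498, and fitting only the groups compared gave 331 with siRNA 2.

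Over all 7442 genes, the replicate block called 702 with siRNA 2, 922 between the siRNAs and 1127 by the F test. Of the members it called 6 with siRNA 2 (4 higher and 2 lower), 6 between the siRNAs and 8 by the F test. Among them CLDN1 was called with siRNA 2 (limma adjusted p = 0.0396) and between the siRNAs (0.0143), PKP2 in the same comparisons (0.0218 and 0.0168) and FLRT3 with siRNA 2 (0.0434), and TJP3 lost its call with siRNA 1 (0.0534). Replicate numbers were shared across groups in the labels, and deviations of same-numbered arrays correlated at 0.205 to 0.265, but nothing in the labels says that a number marks a shared batch. The 2 arrays per group, and not knowing what the replicates repeat, limit all these calls, and the cause of the changes under the prior and block was not tested.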

Other observations

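Genes next to the called members in RefSeq order were looked up after the values were seen. LGR4, which neighbours LIN7C and encodes a receptor for R-spondins, had log2 differences of 0.08 with siRNA 1 and -0.57 with siRNA 2 (limma adjusted p = 0.575 and 0.00420). Between the siRNAs it differed by 0.65 (adjusted p = 0.00192), opposite in sign to LIN7C, and KIF18A, beyond BDNF on the other side, was not called. FLRT3 lies within the span of MACROD2 and TJP3 overlaps APBA3, neither of which was tested. KIF16B, beside FLRT3, had differences of 0.05 and 0.02 with siRNA 1 and siRNA 2. SNRPB2, the next gene, differed by -0.32 between the siRNAs (limma adjusted p = 0.0294), opposite in sign to FLRT3. On either side of PARD3, NRP1 was -0.01 and -0.02 from control with siRNA 1 and siRNA 2, and CUL2 was -0.01 and -0.04 from it.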
